A study of Danio rerio with 6 samples.

Results

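The retinoid visual cycle was examined through 10 genes, rpe65a, rlbp1a, rlbp1b, rdh5, rbp3, rbp4, stra6, abca4a, abca4b and rgra. They were found by symbol among the 32520 genes listed in the deposited abundance tables, and each matched exactly 1 gene. Polyadenylated RNA had been sequenced from whole untreated zebrafish larvae at 5 days post fertilization, 30 larvae pooled per sample. The labels give 3 samples the genotype (stim2a;stim2b)-/-, homozygous for mutations in both genes, and 3 samples (stim2a;stim2b)+/+, wild type at both. No strain, allele name or transgene is given in the labels used here, and a pool shows no differences between larvae. Whether each pool had parents of its own is not stated in the labels, and p-values therefore cover only the spread among these pools, which may be technical.

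Photoreceptors detect light with a vitamin A derivative, retinal, bound to opsin, and light turns it from a bent into a straight form. The visual cycle turns it back: ABCA4 helps to clear the straight form from outer segments, and retinol is carried to the retinal pigment epithelium. There it is esterified, and RPE65 isomerizes the ester. RDH5 and the binding protein CRALBP, encoded by the rlbp1 genes, act on the product, and Müller glia hold a further branch that supplies cones. RBP4 carries retinol in blood and STRA6 is its receptor at the cell membrane. STIM2 proteins, the targets of the mutations, sense calcium in the endoplasmic reticulum.

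Of the targeted genes, stim2a averaged 1.31 ± 0.104 TPM under the label -/-, against 0.328 ± 0.0752 TPM under the label +/+, and stim2b 1.57 ± 0.258 against 0.580 ± 0.128 TPM (SD, n = 3 each). Both were therefore higher under the mutant label (log2 fold changes 1.13 and 0.94, adjusted p = 0.00213 and 0.00871 by limma), and every direction below follows labels that these genes go against. TPM is a share of transcripts scaled for their length, which lets levels of different genes be compared but keeps no depth. Relative depth, read from coverage divided by FPKM, was 4.64 to 5.93. Replicate 3 of each label lay apart from its group on the first principal component. Most of the variation among libraries, 79.6%, ran along that axis. Replicates 1, 2 and 3 scored −52.0, −46.4 and −18.1 under the label +/+, and 29.9, 23.2 and 63.4 under the label -/-. The TPM of rpe65a, rbp3, abca4a and abca4b ranked the libraries in the order of these scores, and those of rgra and rbp4 did not. The part of this library-wide axis in their changes was not tested. The median gene had a log2 fold change of 0.22 as deposited, so values are also given after each library was rescaled by its median gene ratio, where that median was 0.00.

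Of the 10 visual cycle genes, 5 rose in the libraries labelled -/- (rpe65a, rgra, rbp3, abca4a and abca4b), 1 fell (rbp4) and 4 did not pass the test (rdh5, rlbp1a, rlbp1b and stra6). The test was limma on log2(TPM + 0.5) with calls at an adjusted p under 0.05, and all 10 genes passed its filter on low values. Over all 20330 tested genes 39.6% were called, 30.8% higher and 8.76% lower. Of the 10 genes, 4 were called higher with a log2 fold change of at least 1, against 4.73% of all tested genes. After rescaling, the counts were again 5 and 1, with 44.5% of all tested genes called, 22.0% higher and 22.4% lower. With the replicate number as a block, 8 of the 10 genes were called, against 58.8% of all tested genes. The members called numbered 4 without replicate 1 labelled +/+, 3 without replicate 2 labelled +/+, and 8 without replicate 3 of both labels, an alternative chosen after seeing the data. Of all tested genes 4.38%, 3.23% and 51.4% were called in these 3 fits. The median log2 fold change of the 10 genes was 0.63 as deposited and 0.40 rescaled, beside 0.22 and 0.00 for all tested genes. The groups did not overlap for 8 of the 10 genes, against 55.8% of all tested genes.

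**Figure D1:**
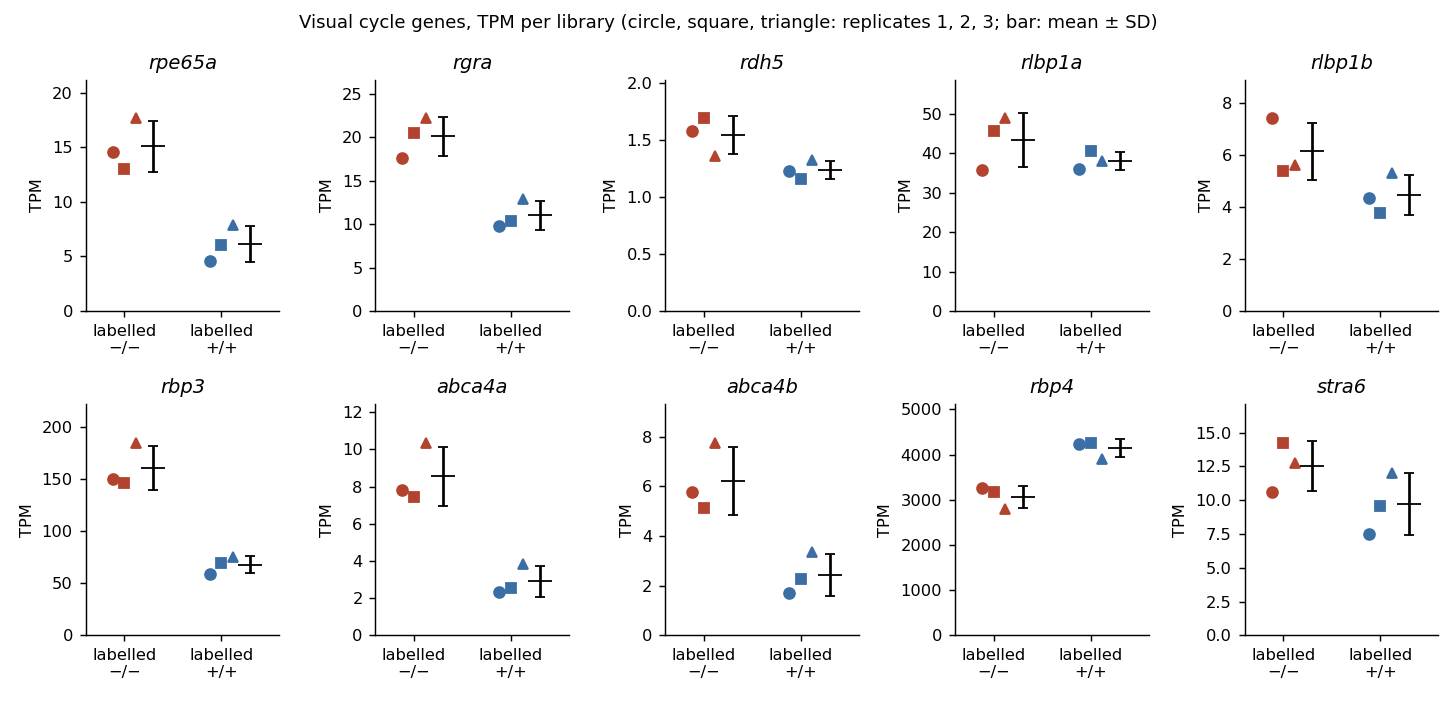
TPM of the 10 visual cycle genes in each library, with libraries labelled -/- on the left and those labelled +/+ on the right of each panel. Symbols mark replicates 1, 2 and 3 and bars the mean ± SD; the groups overlap for rlbp1a and stra6, and rbp4 is the gene that is lower under the label -/-.

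The levels spanned a wide range. In the libraries labelled -/- the order of mean TPM was rbp4, rbp3, rlbp1a, rgra, rpe65a, stra6, abca4a, abca4b, rlbp1b and rdh5. There rgra and rpe65a were separate only by the margin between 17.68 and 17.66 TPM, and the values of rpe65a and stra6 overlapped, as did those of abca4a with abca4b and of abca4b with rlbp1b. In the libraries labelled +/+ the order was rbp4, rbp3, rlbp1a, rgra, stra6, rpe65a, rlbp1b, abca4a, abca4b and rdh5. Each neighbour from rgra down to abca4b overlapped the next in that group. The place of rpe65a above or below stra6 thus differed between the labels within overlapping values.

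Among the retinal pigment epithelium genes, rpe65a encodes the isomerase (ENSDARG00000007480.10, chromosome 2, 1428696 to 1443692, coordinates as deposited). It stood at 14.6, 13.1 and 17.7 TPM in replicates 1, 2 and 3 labelled -/-, against 4.61, 6.03 and 7.90 TPM in those labelled +/+. The lowest value under the label -/- was well above the highest under the label +/+. The means were 15.1 ± 2.35 and 6.18 ± 1.65 TPM (SD, n = 3 each), and their ratio was 2.44. Its log2 fold change was 1.24 ± 0.20 (SE, adjusted p = 0.00866 by limma) and 1.01 after rescaling (adjusted p = 0.00285). The call of rpe65a held without each library in turn, with a highest adjusted p of 0.0453.

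The gene rgra (ENSDARG00000054890.5, chromosome 13, 29446226 to 29455859) encodes an opsin of the pigment epithelium and Müller glia that, in mammals, takes part in light-driven regeneration of visual chromophore. It had 17.7, 20.5 and 22.2 TPM in the libraries labelled -/-, against 9.83, 10.4 and 12.9 TPM in those labelled +/+. The groups were separate, and replicate 3 was the highest in each. The mean was 1.82 times as high, 20.1 ± 2.28 against 11.0 ± 1.66 TPM (SD, n = 3 each), and its log2 fold change by limma was 0.84 ± 0.14 (SE) at an adjusted p of 0.00937. It was 0.61 after rescaling (adjusted p = 0.00538). Without replicate 2 labelled +/+, rgra missed the threshold (adjusted p = 0.0520).

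The other pigment epithelium genes did not pass. The gene rdh5 (ENSDARG00000008306.12, chromosome 22, 10110358 to 10121880), whose mammalian product oxidizes cis-retinol to cis-retinal, was the lowest of the 10 genes. Its values were 1.58, 1.69 and 1.37 TPM in the libraries labelled -/-, against 1.23, 1.16 and 1.32 TPM in those labelled +/+. The groups did not overlap, but the gap between replicate 3 of each label was narrow. The log2 fold change of rdh5 was 0.23 ± 0.12 (SE, adjusted p = 0.158 by limma), close to the median of all genes.

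Zebrafish have a pair of genes for CRALBP, the carrier of cis-retinoids, with rlbp1a reported in the pigment epithelium and rlbp1b in Müller glia. The gene rlbp1a (ENSDARG00000012504.11, chromosome 7, 13867722 to 13884610) reached 35.6, 45.6 and 48.8 TPM in the libraries labelled -/-, against 35.9, 40.5 and 37.9 TPM in those labelled +/+. The groups overlapped, since replicate 1 labelled -/- was the lowest of all. Its log2 fold change was 0.17 ± 0.13 (SE, adjusted p = 0.290 by limma) as deposited and −0.068 ± 0.13 after rescaling, so its sign depended on the scaling. The gene rlbp1b (ENSDARG00000045808.9, chromosome 25, 19105804 to 19118127) had 7.40, 5.38 and 5.62 TPM in the libraries labelled -/-, against 4.35, 3.75 and 5.29 TPM in those labelled +/+. The groups were separate by a small margin, with replicate 2 labelled -/- close to replicate 3 labelled +/+. The log2 fold change of rlbp1b was 0.42 ± 0.17 (SE, adjusted p = 0.0787 by limma) and 0.20 after rescaling. It passed with the replicate number as a block (adjusted p = 0.0282; 0.194 with the block and rescaling together) and without replicate 3 labelled +/+ (0.0382).

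Linear ratios within a library do not depend on its scaling. The ratio of rlbp1a to rlbp1b was 4.81, 8.47 and 8.69 in the libraries labelled -/-, against 8.26, 10.8 and 7.16 in those labelled +/+. The groups overlapped, and the exact permutation test of the mean log2 ratio, two-sided, gave p = 0.6 for a difference of −0.24. With 3 samples against 3 that test cannot go below 0.1. The ratio of rpe65a to rlbp1a, set out as a description after the values were seen, was 0.409, 0.286 and 0.362 in the libraries labelled -/-, against 0.128, 0.149 and 0.209 in those labelled +/+. In each library labelled -/- there was thus more rpe65a per rlbp1a than in any library labelled +/+.

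On the photoreceptor side rbp3, abca4a and abca4b all rose. The gene rbp3 (ENSDARG00000059163.8, chromosome 12, 2665081 to 2670156) encodes IRBP, the retinoid-binding protein that photoreceptors secrete into the matrix between themselves and the pigment epithelium. Its values were 150.3, 146 and 185 TPM in the libraries labelled -/-, against 59.3, 69.1 and 74.8 TPM in those labelled +/+. Every library labelled -/- was far above every library labelled +/+, and the means were 160.2 ± 21.2 and 67.7 ± 7.86 TPM (SD, n = 3 each). The ratio was 2.37 and the log2 fold change 1.23 ± 0.12 (SE, adjusted p = 0.00137 by limma), or 0.99 after rescaling (adjusted p = 0.000559). Its rank among all genes by TPM was 577 to 689 under the label -/- and 1298 to 1507 under the label +/+. It was called without each library in turn, with a highest adjusted p of 0.0100.

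The paralogs abca4a and abca4b encode the flippase of photoreceptor discs. The gene abca4a (ENSDARG00000057169.6, chromosome 24, 28561038 to 28645334) had 7.82, 7.46 and 10.4 TPM in the libraries labelled -/-, against 2.32, 2.55 and 3.86 TPM in those labelled +/+. Its mean ratio of 2.94 was the largest of the 10 genes, and its log2 fold change by limma was 1.42 ± 0.20 (SE) at an adjusted p of 0.00619, or 1.21 after rescaling (adjusted p = 0.00148). The groups were separate, replicate 3 was the highest of each, and the call of abca4a held without each library in turn (highest adjusted p 0.0363). The gene abca4b (ENSDARG00000062661.10, chromosome 2, 15203322 to 15294707) had 5.77, 5.13 and 7.76 TPM in the libraries labelled -/-, against 1.69, 2.27 and 3.37 TPM in those labelled +/+. The groups were again separate, with replicate 3 the highest of each, and for abca4b the log2 fold change was 1.21 ± 0.23 (SE, adjusted p = 0.0132 by limma), or 1.00 after rescaling (0.00574). Without replicate 1 or 2 labelled +/+ it missed the threshold (adjusted p = 0.0540 and 0.0620).

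The ratio of abca4a to abca4b was 1.35, 1.46 and 1.34 in the libraries labelled -/-, against 1.37, 1.12 and 1.15 in those labelled +/+. These linear ratios overlapped, since replicate 1 labelled +/+ exceeded replicates 1 and 3 labelled -/-. On the scale of log2(TPM + 0.5) the mean ratios were 0.43 ± 0.06 and 0.22 ± 0.12 (SD, n = 3 each), a difference of 0.21. A two-sided exact permutation test on that scale returned p = 0.1, the smallest it allows, and 0.2 when adjusted over both paralog ratios. It was not run on the linear ratios. A difference between the paralogs was not shown.

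**Figure D2:**
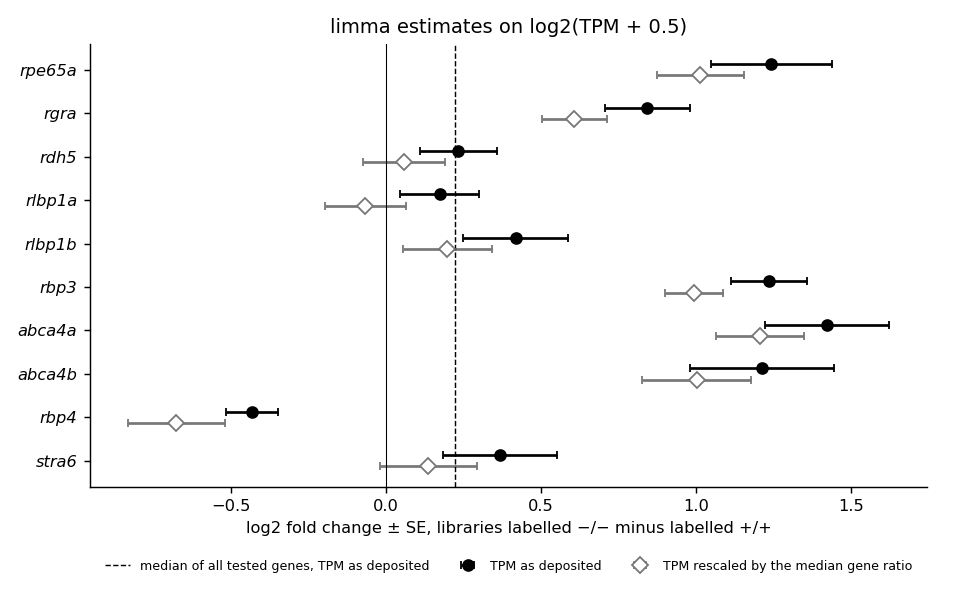
Log2 fold change ± SE of the 10 genes by limma, libraries labelled -/- minus libraries labelled +/+, with TPM as deposited (filled) and rescaled by the median gene ratio (open). The dashed line is the median of all tested genes, 0.22; rpe65a, rgra, rbp3, abca4a and abca4b lie above it on both scales, rbp4 lies below 0 on both, and rlbp1a changes sign.

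The carrier of retinol in blood went the other way. The gene rbp4 (ENSDARG00000101199.3, chromosome 12, 5115929 to 5120339) was by far the most abundant of the 10 genes, at 3249, 3164 and 2793 TPM in the libraries labelled -/-, against 4242, 4263 and 3909 TPM in those labelled +/+. The groups were separate, and replicate 3 was the lowest of each. The mean fell to 3068 ± 243 TPM in the libraries labelled -/-, against 4138 ± 199 TPM in those labelled +/+ (SD, n = 3 each), a ratio of 0.742. The rank of rbp4 among all genes was 40 to 52 under the label -/- and 27 to 30 under the label +/+. Its log2 fold change was −0.43 ± 0.08 (SE, adjusted p = 0.0136 by limma) and −0.68 after rescaling (adjusted p = 0.0124). Without replicate 1 or 2 labelled +/+, rbp4 missed the threshold (adjusted p = 0.0634 and 0.0683).

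Its receptor gene stra6 (ENSDARG00000051874.8, chromosome 25, 22571475 to 22634675) reached 10.6, 14.3 and 12.7 TPM in the libraries labelled -/-, against 7.48, 9.59 and 12.04 TPM in those labelled +/+. The groups overlapped, because replicate 3 labelled +/+ exceeded replicate 1 labelled -/-. The log2 fold change of stra6 was 0.37 ± 0.18 (SE, adjusted p = 0.136 by limma) and 0.14 after rescaling. It passed with the replicate block (adjusted p = 0.0241; 0.290 with the block and rescaling together) and without replicate 3 labelled +/+ (0.0373).

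**Figure D3:**
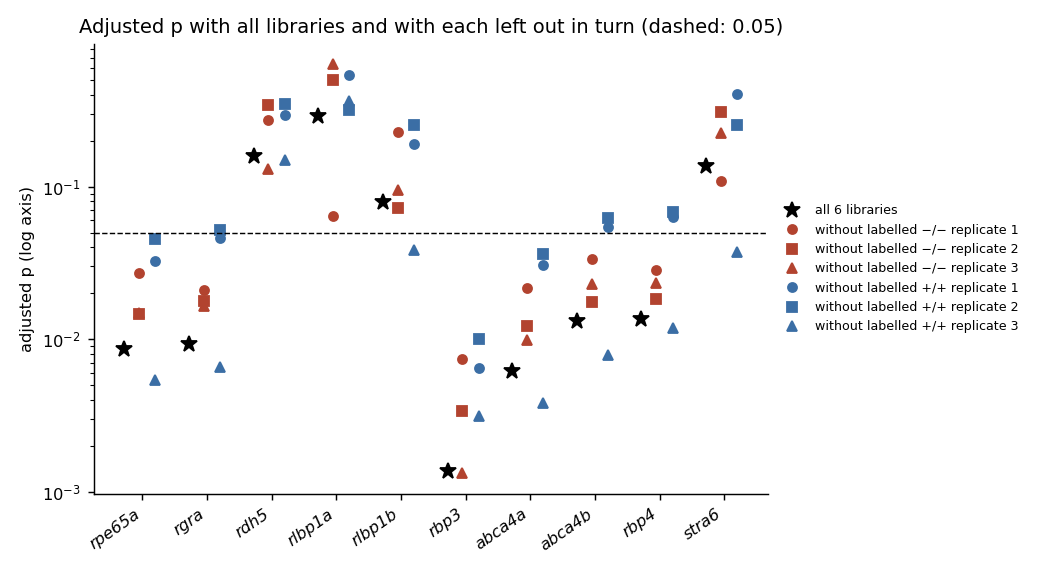
Adjusted p of the 10 genes by limma with all 6 libraries (star) and with each library left out in turn (symbols), on a log axis with the threshold of 0.05 dashed. All symbols of rpe65a, rbp3 and abca4a lie under the line, while rgra, abca4b and rbp4 cross it when replicate 1 or 2 labelled +/+ is left out, rgra only for replicate 2.

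None of the 10 genes lies within 5 Mb of stim2a or stim2b. In the authors' deposited table, whose direction is not stated, 6 of the 10 genes had an adjusted p under 0.05. They were the same 6 that were called here. The share of all genes under 0.05 in that table was not computed. That table comes from the same series, so the match is not separate evidence. The log2 fold change in the authors' deposited table was −1.06 for rpe65a, −1.03 for rbp3, −1.20 for abca4a, −1.11 for abca4b and −0.66 for rgra, and 0.61 for rbp4. For all 10 genes that sign was opposite to the one obtained here from rescaled TPM. It was also opposite for stim2a (−1.73) and stim2b (−1.19). With TPM as deposited, rlbp1a had the same sign in both, 0.17 here and 0.026 in that table. The share of all genes with opposite signs was not computed.

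Markers of the cell types that hold these genes were read beside them. In bulk samples a change in the number of cells of a type and a change in RNA per cell cannot be told apart. Of 17 tested rod genes 14 rose and none fell, beside 30.8% and 8.76% of all tested genes, and their summed level was 771 to 993 TPM in the libraries labelled -/-, against 467 to 600.4 TPM in those labelled +/+. Among them the arrestin gene sagb averaged 284 ± 34.0 TPM under the label -/- and 169 ± 19.2 TPM under the label +/+ (SD, n = 3 each). The rod transducin gene gnat1 averaged 121.5 ± 7.11 and 100.8 ± 7.46 TPM, and its call (adjusted p = 0.0409 by limma) was lost after rescaling (0.797). The rod genes counted did not include the rhodopsin gene rho, nor gngt1, pde6a, pde6ga or cnga1. Whether the genes counted are particular to rods was not tested. Of 25 tested cone genes 15 rose and 1 fell, the arrestin gene arr3b, with sums of 5112 to 5650 TPM under the label -/- and 3801 to 4317 TPM under the label +/+. The 4 most abundant were the opsin genes opn1mw1 and opn1lw2 and the transducin subunit genes gngt2b and gnb3b, with ratios of 1.16, 1.16, 1.53 and 1.28. Of these, opn1lw2 was not called (adjusted p = 0.0815 by limma, 0.0492 with the replicate block), and after rescaling gngt2b was called and the other three were not. The cone genes counted did not include the opsin gene opn1sw1, nor cnga3b or guca1e. Of 15 tested genes of outer segments and photoreceptor transcription 7 rose and none fell, summing to 161 to 189 TPM and 130.03 to 147 TPM. The most abundant of them, the retinoschisin gene rs1a, did not pass (71.7 ± 2.64 and 70.7 ± 2.24 TPM, SD, n = 3 each). In this list impg2b was counted as 2 genes, identifiers at nearly the same place on chromosome 22, and neither was called. After rescaling, 11, 10 and 7 of the rod, cone and outer segment genes rose, and 0, 1 and 0 fell, beside 22.0% and 22.4% of all tested genes. The median log2 fold changes of the rod, cone and outer segment lists were 0.89, 0.45 and 0.41 as deposited, and 0.70, 0.22 and 0.22 rescaled. Without replicate 1 or 2 labelled +/+, 4.38% and 3.23% of all tested genes were called. In the same fits the calls numbered 6 and 5 for rods, 7 and 5 for cones, and 1 and 1 for the third list. The part of these changes in those of rbp3 and the abca4 genes was not tested.

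Markers of the pigment epithelium, most of which melanophores share, overlapped between groups in their sum, in which tyrp1b and pmela weigh most. Taken singly, best1, mitfa, dct, pmelb, otx2a and slc16a3a did not overlap and were higher under the label -/-. The other genes of the list overlapped. Over all tested genes 55.8% did not overlap. The sum of the list was 209.6 to 239 TPM in the libraries labelled -/-, against 183 to 225 TPM in those labelled +/+. Of 15 tested genes 5 rose and none fell as deposited, with a median log2 fold change of 0.27, and 3 rose and 1 fell after rescaling, with a median of 0.099. Over all tested genes 30.8% rose as deposited and 22.0% after rescaling, so the share of this list was near the background. Those that rose as deposited were the melanin genes dct and pmelb, the transcription factor genes otx2a and otx2b, and slc16a3a, which encodes a lactate transporter. Of these, pmelb, otx2a and slc16a3a were called on both scales. Whether the genes of this list, slc16a3a included, are particular to the pigment epithelium was not tested. As deposited, none was called without replicate 1 or without replicate 2 labelled +/+, 3 were without replicate 1 labelled -/- and 2 without replicate 3 labelled -/-. Over the fits with a library left out, 657 to 9677 of the 20330 tested genes were called, the share being 4.38% and 3.23% without these +/+ replicates. The most abundant of this list, tyrp1b (60.4 ± 3.30 and 60.5 ± 5.75 TPM) and pmela (56.6 ± 4.12 and 53.5 ± 6.15 TPM, SD, n = 3 each), did not pass as deposited (adjusted p = 0.999 and 0.533 by limma). After rescaling tyrp1b was called lower (adjusted p = 0.0448). The defining marker best1, an anion channel gene, was listed at 0.307, 0.431 and 0.540 TPM under the label -/- and 0.206, 0.264 and 0.226 TPM under the label +/+, below the filter. The part of pigment epithelium RNA in the value of rpe65a was not tested.

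Müller glia markers summed to 2608 to 2838 TPM in the libraries labelled -/-, against 2790.4 to 2933 TPM in those labelled +/+. The largest parts of this sum were apoeb and fabp7a, with means of 1107 and 610 TPM over all 6 libraries. Of 14 tested genes the glutamate transporter genes slc1a2b and slc1a3b, sox2 and vim rose, and glula, the carbonic anhydrase gene cahz and her4.1 fell. These 4 increases and 3 decreases of 14 stand beside 30.8% and 8.76% of all tested genes. The median log2 fold change was 0.096 as deposited and −0.14 rescaled. Many of these genes are also used by brain glia, and cahz by red blood cells. The 3 most abundant, apoeb, fabp7a and glulb, did not pass (ratios 0.937, 0.991 and 0.905, adjusted p = 0.459, 0.885 and 0.131 by limma). The fourth, glula, which encodes glutamine synthetase, fell to 238 ± 22.5 TPM under the label -/-, against 309 ± 4.52 TPM under the label +/+ (SD, n = 3 each, adjusted p = 0.0176 by limma). Without replicate 1 or 2 labelled +/+, 1 of the 14 was called, lower, and without replicate 3 labelled -/- 4 were. Over the fits with a library left out, 657 to 9677 of the 20330 tested genes were called, the share being 4.38% and 3.23% without these +/+ replicates. The part of glial RNA in the value of rlbp1b was not tested.

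Liver is the main source of RBP4 in vertebrates. Of 18 tested liver genes 3 rose and 5 fell as deposited, and none rose and 5 fell after rescaling. Over all tested genes 30.8% rose and 8.76% fell as deposited, and 22.0% rose and 22.4% fell after rescaling. The median log2 fold change of the liver genes was −0.10 as deposited and −0.35 rescaled. Those that rose were serpina1, cp and ahsg2, and those that fell were fabp10a, tfa, apoa1a, ambp and cfh, which encode secreted plasma proteins apart from fabp10a. The liver sums overlapped, at 11726 to 15629 TPM in the libraries labelled -/-, against 14435 to 16808 TPM in those labelled +/+. The fatty acid binding protein gene fabp10a fell to 1553 ± 101 TPM under the label -/-, against 2125 ± 60.0 TPM under the label +/+, and the transferrin gene tfa to 1495 ± 166 against 2171 ± 109 TPM (SD, n = 3 each). Their log2 fold changes were −0.45 and −0.54. The most abundant, the apolipoprotein gene apoa2, did not pass (7056 ± 1362 and 7669 ± 618 TPM, adjusted p = 0.440 by limma). Without replicate 2 labelled +/+ no liver gene was called, against 4 lower without replicate 1 of that label. Over all tested genes 3.23% and 4.38% were called in these fits. The part of liver RNA in the change of rbp4 was not tested.

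**Figure D4:**
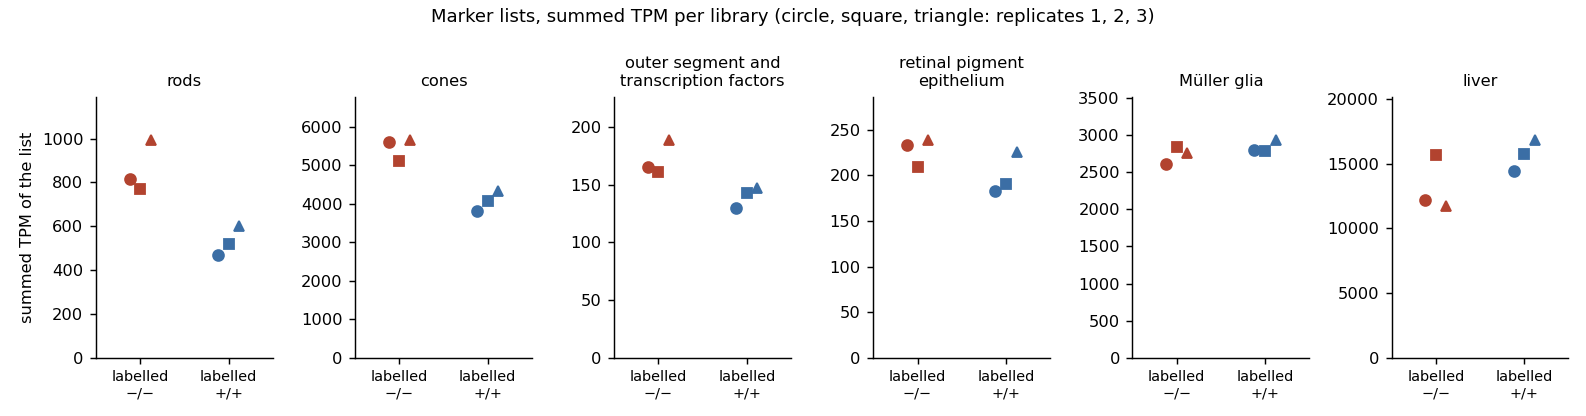
Summed TPM of 6 marker lists in each library, with libraries labelled -/- left of those labelled +/+ and symbols for replicates 1, 2 and 3. The sums of rod, cone and outer segment lists are separate between the labels, and those of pigment epithelium, Müller glia and liver overlap.

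Among the other genes of retinoid handling, 31 of 32 matched genes were tested, of which 10 rose, 4 fell and 17 did not pass. Their median log2 fold change was 0.25, near that of all genes. After rescaling 5 rose and 7 fell, with a median of 0.03, so the balance of this list depended on the scaling. All 5 of the rescaled increases and 4 of the rescaled decreases were also called as deposited. Without replicate 1 or without replicate 2 labelled +/+ there were 5 calls, where 4.38% and 3.23% of all tested genes were called. Without replicate 1 labelled -/- there were 7. Over the fits with a library left out, 657 to 9677 of the 20330 tested genes were called.

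Genes that act beside the 10 in the retina were among the increases. The opsin gene rgrb, the paralog of rgra, averaged 42.9 ± 4.83 TPM under the label -/-, against 18.9 ± 4.79 TPM under the label +/+ (SD, n = 3 each), 2.27 times as much (adjusted p = 0.00817 by limma). The ratio of rgra to rgrb, a description only, was 0.454, 0.494 and 0.460 under the label -/- and 0.707, 0.536 and 0.551 under the label +/+. The gene rdh8b, whose mammalian counterpart reduces retinal to retinol in outer segments, had 3.71 ± 0.649 and 1.53 ± 0.235 TPM, a ratio of 2.43 (adjusted p = 0.00753). Its paralog rdh8a did not pass, with a log2 fold change of 0.18 as deposited and −0.060 after rescaling. The increases with the remaining calls on both scales were the retinol-binding gene rbp4l, the dehydrogenase gene rdh14b and the retinal reductase gene dhrs3b. Their ratios were 1.59, 1.54 and 1.55. Of these 3, rbp4l was called without each library in turn, while rdh14b and dhrs3b were called in 3 and 1 of the 6 fits, with highest adjusted p values of 0.0985 and 0.124.

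Increases called with TPM as deposited and not after rescaling were those of degs1, the cellular retinol-binding gene rbp5, the retinol dehydrogenase gene rdh10a, lratb.2, of the enzyme family that esterifies retinol, and bco2b, a carotenoid-cleaving enzyme gene. Their ratios lay between 1.33 for rbp5 and 1.54 for lratb.2. The gene degs1 encodes a desaturase that has been proposed to isomerize retinol in the cone branch of the cycle. It averaged 45.2 ± 3.06 TPM under the label -/-, against 32.6 ± 4.58 TPM under the label +/+ (SD, n = 3 each). Each of these 5 genes was called in 2 or 3 of the 6 fits with a library left out, with highest adjusted p values of 0.0852 to 0.141.

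The 4 decreases were those of rbp2a, rbp2b, bco1l and a paralog of rpe65a. The intestinal retinol-binding protein genes rbp2a and rbp2b were both lower under the label -/-. For rbp2a the means were 229 ± 39.1 TPM under the label -/- and 309 ± 6.95 TPM under the label +/+, and for rbp2b 111 ± 10.8 and 165 ± 0.665 TPM (SD, n = 3 each). The ratios were 0.741 and 0.674, and rbp2a was called in 2 of the 6 fits with a library left out (highest adjusted p 0.0944 by limma), rbp2b in all 6. The carotenoid-cleaving enzyme gene bco1l stood at 24.4 ± 3.18 and 41.8 ± 2.51 TPM, a ratio of 0.584 (adjusted p = 0.00738 by limma). It lies 2.80 Mb from stim2b, and whether that linkage bears on its level was not tested. Of the other genes of this list within 5 Mb of a targeted gene, lratb.2 was called higher, and lratb.1, stra6l and BCO1 were not called.

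A pair of genes on chromosome 8 carries the symbol RPE65, and neither could be assigned to rpe65b or rpe65c. The pair lies 4.19 kb apart. ENSDARG00000094752.2 (16688370 to 16697912) had 19.7, 19.3 and 17.2 TPM in the libraries labelled -/-, against 27.9, 29.2 and 26.0 TPM in those labelled +/+. It was the opposite of rpe65a, with separate groups in the other direction. Its log2 fold change by limma was −0.55 ± 0.10 (SE) at an adjusted p of 0.0110, and it was called in 4 of the 6 fits with a library left out (highest adjusted p 0.0626). ENSDARG00000054420.7 (16702106 to 16712255) had 5.98, 6.18 and 8.75 TPM under the label -/- and 9.81, 7.32 and 9.03 TPM under the label +/+. Its groups overlapped, with a log2 fold change of −0.31 (adjusted p = 0.173) as deposited and −0.54 after rescaling (adjusted p = 0.0204). The sources used here do not tell how reads shared by near-identical copies were counted, so the split between these RPE65 genes is uncertain.

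**Figure D5:**
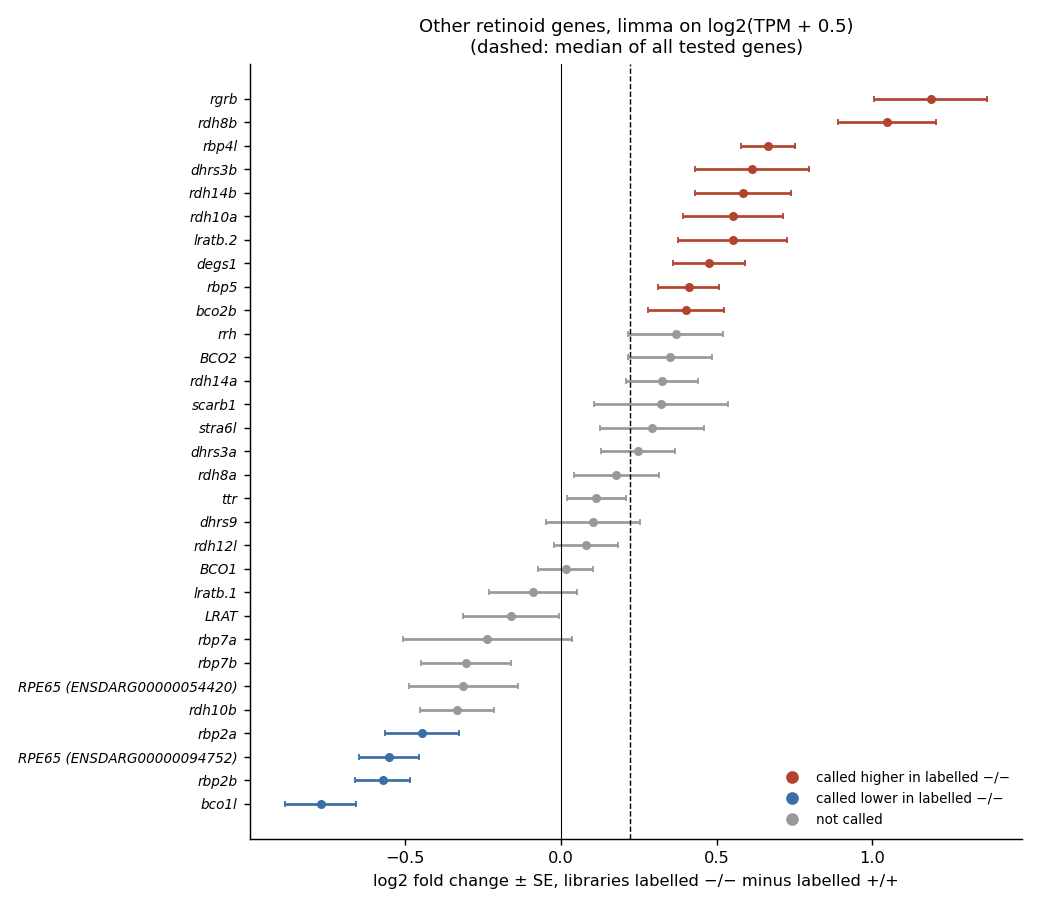
Log2 fold change ± SE by limma of the 31 tested genes of the wider retinoid list, libraries labelled -/- minus libraries labelled +/+, coloured by call, with the median of all tested genes dashed. The genes rgrb and rdh8b have the largest increases and bco1l the largest decrease, and the RPE65 genes of chromosome 8 both lie below 0.

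Among the genes that did not pass, the most abundant were ttr, whose mammalian product is the blood partner of RBP4, BCO1, dhrs9 and rbp7a. The gene ttr averaged 97.3 ± 10.4 TPM under the label -/- and 89.5 ± 2.73 TPM under the label +/+ (SD, n = 3 each, adjusted p = 0.345 by limma). BCO1, a carotenoid-cleaving enzyme gene, had 56.0 ± 5.19 and 55.2 ± 0.815 TPM. The dehydrogenase gene dhrs9 had 45.2 ± 3.36 and 42.5 ± 9.08 TPM, and the cellular retinoid-binding gene rbp7a 24.1 ± 4.70 and 29.8 ± 12.9 TPM.

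The genes whose pattern over the 6 libraries was most like that of rpe65a were rims2b, which encodes a scaffold of synaptic release sites, foxa1, a forkhead transcription factor gene, gldc, of the glycine cleavage system, ogal and ptpdc1b. Likeness was the root mean square difference of log2(TPM + 0.5) after centring each gene, over 12766 genes with a mean of at least 5 TPM, and it lay between 0.0551 for rims2b and 0.0672 for ptpdc1b. Of the visual cycle genes compared, rbp3 stood at place 29 (0.118) and abca4a at place 31 (0.119). The gene rgra stood at place 830, stra6 at 4708, rlbp1b at 4810, rlbp1a at 6860 and rbp4 at 12066. The genes of a library share its scaling and replicate 3 of each label lay apart, which all these genes have in common. Likeness used TPM as deposited, and genes with similar fold changes lie near each other by this measure. The places of rbp3 and abca4a are therefore not evidence separate from their fold changes.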

How the data were processed

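Each sample had an abundance table from the authors with coverage, a mean signal per base, and FPKM and TPM values, in the layout of StringTie per the file headers. Per the submitters' processing notes, the tools included StringTie 1.3.3b, STAR 2.5.3a and DESeq2 1.16.1, and danRer11 and hg38 were listed as builds with no role given. Libraries were stranded, per the labels' protocols. A deposited table of the authors' own test holds, per the file headers of DESeq2, a mean normalized count signal, a log2 fold change with its error, a Wald score and p-values; its direction is not stated. Absolute depth is unknown.

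Groups and replicate numbers came from the labels. Deposited file names, which contradict the labelled genotypes, grouped no sample. Symbols came from a table of Ensembl identifiers, with 10859 paralogs named by chromosome from the RefSeq gene table of assembly GRCz12tu. Rows of 1 gene were summed. limma 3.58.1 in R 4.3.3 (trend, two-sided, Benjamini-Hochberg) was fitted on log2(TPM + 0.5), a scale that understates changes of low genes, to the 20330 genes that reached 1 TPM in 3 or more libraries. Python 3.11.15, pandas 2.3.3 and SciPy 1.17.1 were used for the rest. Members and lists were chosen with earlier results of these data known. Genes named were the members, the targeted genes, the called and the 4 most abundant uncalled retinoid genes, up to 4 most abundant genes of each marker list, and the 5 genes most like rpe65a. Other marker genes were named after their values were seen. Entries for 3 genes first placed in the retinoid and rod lists are not reported here. The count of list entries matched was 32 of 36 for the other retinoid genes, 18 of 25 for rods, 28 of 31 for cones, 14 of 19 for outer segments, 17 of 18 for pigment epithelium, 14 of 15 for Müller glia and 19 of 20 for liver.

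Deviations from the group means correlated at 0.25, 0.19 and 0.48 between equal replicate numbers 1, 2 and 3. This passed a rule asking for over 0.1 in every pair. Replicate 2 labelled -/- correlated more with replicate 1 labelled +/+ (0.29) than with its own number, so the numbers do not set replicates 1 and 2 apart. Blocked values stand beside the calls they change among the genes named. No label names a clutch or day that the numbers share, so this pairing is read from the values. Alternatives covered the pseudocount, filter, scaling, unit, block and each library left out; leaving out replicate 3 of both labels was chosen after seeing the data.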

Additional observations from a re-analysis of the deposited data

How the results depend on the processing

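Across the alternatives run, rpe65a, rbp3 and abca4a kept direction and call in every fit, and rdh5 was never called. The other changes of call among the 10 genes arose from leaving out libraries or from the replicate block, as given above, and leaving out replicate 3 of both labels gave rlbp1b (adjusted p = 0.0231) and stra6 (0.0435) a call. The log2 fold change of rlbp1a reversed to −0.068 after rescaling by the median gene ratio, with and without the block. With the replicate block 8 of the 10 genes were called, and it moved no other call among them. The block gave 19 calls among the other retinoid genes, 16 for rods, 19 for cones, 10 for outer segments, 7 for pigment epithelium, 8 for Müller glia and 9 for liver, against 14, 14, 16, 7, 5, 7 and 8 without it. Over all tested genes 58.8% were called with the block and 39.6% without the block. With each library left out in turn, 3 to 8 of the 10 were called and their median was 0.59 to 0.75. That median was 0.40 after rescaling, also with the block, and 0.36 with quantile scaling. All tested genes gave 657 to 9677 calls with a library left out and 5238 under a filter on a mean of 5 TPM. Lists gave 5 to 16 (other retinoid), 5 to 16 (rods), 5 to 18 (cones), 1 to 8 (outer segment), 0 to 7 (pigment epithelium), 1 to 8 (Müller glia) and 0 to 10 (liver) calls with a library left out. The pigment epithelium list gave 3 with a mean of at least 5 TPM, 3 with quantile scaling, 9 with the replicate block and rescaling, and 8 without replicate 3 of both labels. The outer segment list gave 3 with a mean of at least 5 TPM and the liver list 5 after rescaling. The log2 ratio of rlbp1a to rlbp1b differed by −0.39 to 0.021, reversing without replicate 1 labelled -/-, and that of abca4a to abca4b by 0.17 to 0.28. Fewer genes are tested under a stricter filter; the causes of the other shifts were not tested. The genes rdh5 and abca4b had no value with a mean of at least 5 TPM, rdh5 none with FPKM, and stim2a and stim2b none with either. TPM keep no depth, so what depth limits could not be computed.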
